A study of Drosophila melanogaster with 6 samples.

Results

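Of 260 probe sets in the authors' deposited table of genes that differed between DHR96 mutant and Canton S flies, 27 were chosen because the table gave them a function term for transporter, symporter or channel activity; 2 genes were also listed by name, of which CG17754 has no such term. They stand for 25 genes among 18769 probe sets on the array. Hr96, called DHR96 in the labels, is a nuclear receptor of the fly related to vertebrate receptors for foreign compounds. Whole adult Drosophila melanogaster, aged 7 days on standard food, gave the total RNA for 3 arrays labelled DHR96 mutant and 3 Canton S arrays. Canton S is a wild-type strain that the design text calls genetically matched. The labels give neither the allele nor the sex of the animals, and nothing in them tells if samples of 1 group were collected separately, so the spread shown here may be technical.

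Membrane transport proteins fall into a few kinds. ATP-binding cassette (ABC) proteins spend ATP to pump lipids, drugs or other compounds across a membrane, solute carriers move sugars, nucleosides, amino acids or phosphate along or against a gradient, and channels open a pore for ions. In flies many of them work in the gut and in the Malpighian tubules, the renal organ, and others act in lysosomes, mitochondria or nerve and muscle cells.

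The table was drawn up by its authors from these arrays, with a fold of at least 1.3 between group means and a q-value of at most 2.18%, as the deposited values show. The differences between the groups are therefore a description of the chosen genes, and no test of them is given. Just inside the limit stood Tspo at 1.308-fold and Ctns at 1.312-fold in the authors' deposited table. Just outside it, the nearest probe set without a row in the table stood at 1.2999-fold. In all, 432 probe sets, or 2.30%, had a fold of 1.3 or more, and 172 of them are not in the table. None of these carries a name here, so other transporter genes of the fly could not be counted.

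The values are linear probe set intensities that look normalized between arrays before deposit, and array medians lay between 474 and 488. The lowest value of each array lay between 97.2 and 103, well above 0, and folds of dim probe sets may be understated. Log2 differences are DHR96 mutant minus Canton S on log2(intensity + 16), with the standard error (SE) from limma. The targeted gene Hr96 read 963 ± 30.7 on the arrays labelled DHR96 mutant and 524 ± 24.2 on the Canton S arrays (SD, n = 3 each), and the labels do not say where the mutation lies relative to its probe set, so it does not check the labels. Every direction below rests on them. The spike-in control for the 3' end of Dap, spiked into the RNA before labelling, read 473 and 519 on DHR96 mutant replicates 2 and 3, against 1217 on DHR96 mutant replicate 1 and 1007 to 1208 on the Canton S arrays. The split of arrays by spike-in level used below was set by the mean log2 value of 24 such control probe sets. That mean was 7.76 and 7.74 on DHR96 mutant replicates 2 and 3. It was 8.10 on DHR96 mutant replicate 1 and 8.08 to 8.13 on the Canton S arrays. Values for DHR96 mutant replicate 1 alone are therefore given where they differ by more than 1.5 times from those of all 3 arrays.

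Not all of these genes encode membrane transporters. Read by hand from all their function terms and general knowledge of the families, 14 genes with 15 probe sets were classed as membrane proteins that move a solute or an ion: 4 ABC proteins, 6 solute carriers, 3 ion channels and the mitochondrial protein Tspo. The other 11 genes, with 12 probe sets, were not: they include larval storage proteins, a phenoloxidase, alpha-glucosidases and lipid-binding or ligase proteins, and CG17754 has no transport term in the table at all. The split departs from the terms for several genes. CG10300 and Acbp3 carry a transmembrane transporter term from electronic annotation beside a binding term. CG4830 carries a fatty acid transporter term by similarity beside a ligase term. Mal-B1 and Mal-B2 carry a transporter term from electronic annotation. Tspo, classed as a membrane protein, has the same term with the same evidence. Fbp1 carries a protein transporter term beside an oxygen transporter term. Of the 10 genes among these 11 that have a matching term, 8 owed it only to electronic annotation, against 1 of the 14 membrane genes, Tspo. For 1 gene, slo, the term rested on a direct assay, and the protein transporter term of Fbp1 rested in part on a physical interaction.

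In arrays labelled DHR96 mutant, 17 of the 27 probe sets read higher and 10 lower than in Canton S, or 15 genes higher and 10 lower. That is 63.0% higher, beside 70.0% of the other 233 probe sets of the table, and no test was made of that difference. The values of the groups did not overlap for any of the 27, where 30.9% of all 18769 probe sets did not overlap. With limma, 26 of the 27 had an adjusted p under 0.05, against 6.96% of all probe sets; the same contrast chose the members, so nothing is read from these counts. The 26 became 17 with the replicate number as a block, and 2 with a block for the split of arrays by spike-in level, where DHR96 mutant replicate 1 alone is set against the Canton S arrays. The size of the log2 difference had a median of 0.57 over the 27 probe sets, 0.54 over the rest of the table and 0.067 over all probe sets. The membrane genes ranged from 0.41 to 0.83 among 9 higher probe sets and from -0.60 to -0.39 among 6 lower ones. The other members ranged from 0.55 to 1.63 among 8 higher probe sets and from -0.64 to -0.49 among 4 lower ones.

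**Figure D1:**
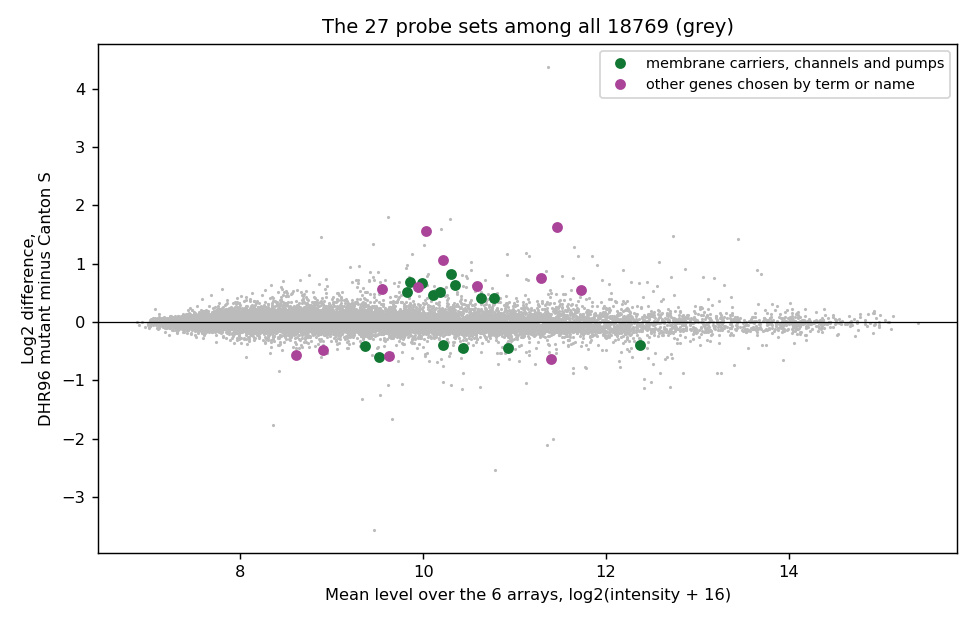
Log2 difference (DHR96 mutant minus Canton S) against the mean level over the 6 arrays, both on log2(intensity + 16), with 1 point per probe set: all 18769 in grey, the 15 probe sets of membrane genes in green and the 12 of the other genes in purple. The 27 members lie at or above the 41.6 percentile of level, and none lies between -0.39 and 0.41; the authors' limit of 1.3-fold keeps out values nearer to 0.

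Of the 4 ABC genes, 3 read lower in the arrays labelled DHR96 mutant and 1 read higher, with CG33173 counted by its term in the table. Mdr50, of the family of P-glycoprotein drug pumps, read 559, 624 and 554 on DHR96 mutant replicates 1, 2 and 3, against 913, 831 and 905 on the Canton S arrays. The highest mutant array stood 207 units below the lowest Canton S array. The log2 difference was -0.60 (SE 0.0610), the most negative among the membrane genes.

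CG4822, a transporter of the ABCG subfamily, read 1277, 1094 and 1143 on the mutant arrays, against 1562, 1562 and 1679 on the Canton S arrays. Its log2 difference was -0.45 (SE 0.0617), and DHR96 mutant replicate 1 was the highest of its group. CG33173, which the table gives an ABC transporter term and a chitin-binding term, read 1601, 1766 and 1583 on the mutant arrays, against 2267, 2247 and 2262 on the Canton S arrays. The Canton S arrays lay within a coefficient of variation (CV) of 0.448%, the narrowest of any member in either group, and the log2 difference was -0.45 (SE 0.0462). The RefSeq gene table of fly genome Release 6 divides CG33173 into the neighbouring genes CG43672 and CG43673, and the probe set was not assigned to either. Its class as an ABC gene is therefore not settled, and the counts of ABC and membrane genes include it.

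Atet, also of the ABCG subfamily and known from the vesicles that release the steroid ecdysone, differed in the other direction from CG4822. It read 1242, 1261 and 1282 on the mutant arrays, against 788, 804 and 776 on the Canton S arrays. Both groups were tight, with CVs of 1.60% in the mutant and 1.78% in the Canton S arrays, and the log2 difference was 0.67 (SE 0.0358). The probe sets of Atet, CG4822 and CG13796 carry the suffix that marks probes shared between transcripts, so signal from related genes cannot be told apart there.

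Among the 6 solute carriers, 5 read higher in the arrays labelled DHR96 mutant and 1 read lower. MFS12 (CG8791), which the table gives a sodium-phosphate symporter term, read 1565, 1774 and 1654 on the mutant arrays, against 1103, 902 and 807 on the Canton S arrays. The groups were 462 units apart at their nearest, and the Canton S arrays were the more spread, with a CV of 16.1% against 6.30% in the mutant arrays. Its log2 difference of 0.83 (SE 0.106) was the largest among the membrane genes.

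A pair of probe sets stood for a sugar transporter that the table calls CG33281, with the CG number CG15407. Release 6 lists CG15407 as an older name of both CG33281 and the gene next to it, CG33282, so either probe set could belong to either gene. The probe set with the suffix _a_at read 2004, 2042 and 1965 on the mutant arrays, against 1540.1, 1635 and 1357 on the Canton S arrays. The other read 1535, 1530.05 and 1796 on the mutant arrays, against 1021, 1096 and 974 on the Canton S arrays. Both were higher in all 3 mutant arrays, by 0.41 (SE 0.0649) and 0.64 (SE 0.0722) on the log2 scale. DHR96 mutant replicate 3 was the lowest mutant array for the probe set with the suffix _a_at and the highest for the other. The 0.41 was also the smallest difference among all higher members.

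Slc45-1 (CG4484), a sucrose-proton symporter, averaged 1816 ± 137 on the mutant arrays and 1360 ± 142 on the Canton S arrays (SD, n = 3 each), a log2 difference of 0.42. CNT2 (CG8083), a concentrative nucleoside transporter, averaged 1287 ± 85.2 on the mutant arrays and 924.6 ± 62.1 on the Canton S arrays (SD, n = 3 each), a log2 difference of 0.47. CG13796, of the family of sodium-coupled neurotransmitter and amino acid carriers, averaged 1074 ± 154 on the mutant arrays and 741 ± 53.2 on the Canton S arrays (SD, n = 3 each), a log2 difference of 0.52. For CG13796 DHR96 mutant replicate 1 was the lowest of its group, and taken alone it differed by 0.34. These 3 carriers had like sizes of difference to slo and to the probe set of CG15407 with the suffix _a_at, all within 0.41 and 0.52.

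Ctns (CG17119), the cystinosin that exports cystine from lysosomes, was the 1 carrier that read lower. It read 1036, 1001 and 1028 on the mutant arrays, against 1325, 1365 and 1333 on the Canton S arrays. The difference of -0.39 (SE 0.0348) was the smallest among the lower members, yet the groups were 288 units apart and their CVs were 1.80% in the mutant and 1.57% in the Canton S arrays.

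Of the 3 ion channels, 2 read higher and 1 lower. Trpml (CG8743), a mucolipin cation channel of late endosomes and lysosomes, read 1179, 1109 and 1205 on the mutant arrays, against 741, 833 and 594 on the Canton S arrays. The Canton S arrays had a CV of 16.7%, the mutant arrays 4.25%, and the log2 difference was 0.69 (SE 0.109). Trpml and Ctns thus both belong to the lysosome, 1 higher and 1 lower.

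In gene order Trpml lay next to serp and 2 genes from verm, which encode chitin deacetylases and which the authors' deposited table lists as 1.59-fold and 1.61-fold higher. Trpml itself stands there at 1.61-fold. No other membrane gene had a gene of the table within 5 genes of it, apart from the divided CG15407 and CG33173.

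The channel slo, which carries the calcium-activated potassium current of nerve and muscle, averaged 1373 ± 26.97 on the mutant arrays and 952 ± 19.1 on the Canton S arrays (SD, n = 3 each), a log2 difference of 0.52 (SE 0.0360). CngB (CG17922), related to subunits of cyclic nucleotide-gated channels, read 575, 522 and 567 on the mutant arrays, against 796, 728 and 716 on the Canton S arrays, a log2 difference of -0.42 (SE 0.0581). The groups of CngB lay 141 units apart. Tspo (CG2789), the translocator protein of the outer mitochondrial membrane, had a mean signal at the 95.8 percentile of all probe sets. It averaged 4611 ± 359 on the mutant arrays and 6032 ± 225 on the Canton S arrays (SD, n = 3 each), a log2 difference of -0.39.

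**Figure D2:**
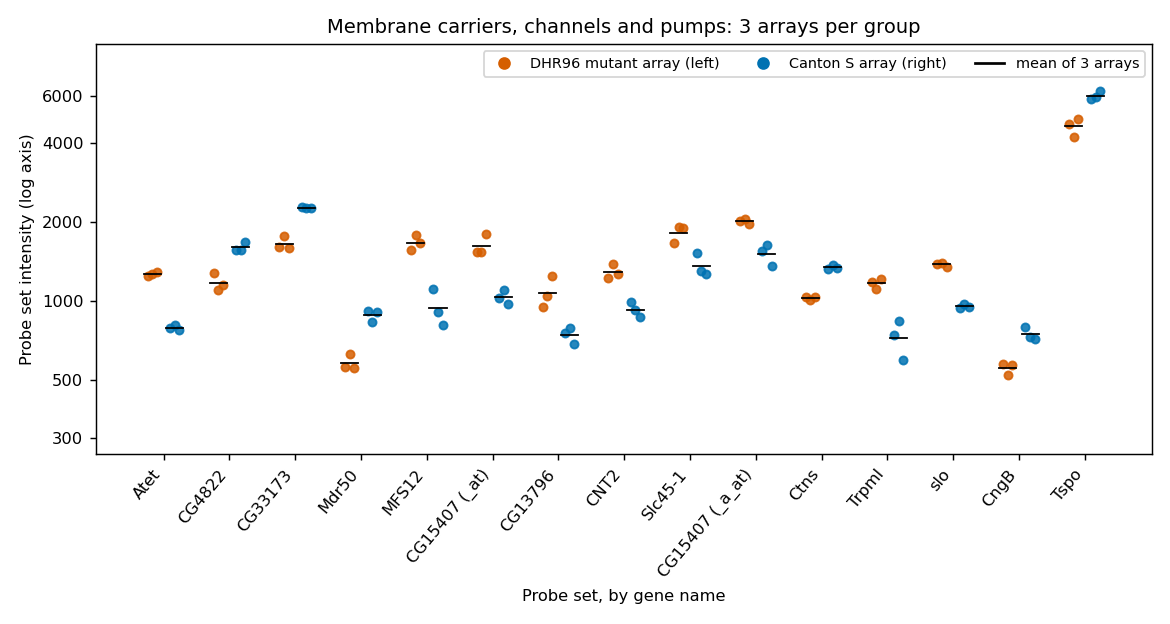
Intensity on each array (log axis) for the 15 probe sets of the 14 membrane genes, ordered as ABC proteins, solute carriers, ion channels and Tspo, with DHR96 mutant arrays in orange at the left of each pair, Canton S arrays in blue at the right and a line at the mean of 3 arrays. The suffix in brackets tells the pair of CG15407 probe sets apart. In no probe set do the groups overlap, and for Atet, slo and Ctns both groups are tight, with CVs of at most 2.01%.

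The other 11 genes comprise 10 chosen by such a term and CG17754. Larval serum proteins, the storage proteins of larval blood, belong to the hemocyanin superfamily together with the phenoloxidases and Fbp1, a receptor for storage protein uptake into the fat body; the table gives all of them an oxygen transporter term. Of these 5 genes, 4 read higher in the arrays labelled DHR96 mutant and 1 read lower. Lsp2 read 4535, 5348 and 5026 on the mutant arrays, against 1346, 2112 and 1413 on the Canton S arrays. With a log2 difference of 1.63 (SE 0.158) it stood first among all members, although Canton S replicate 2 was well above the other Canton S arrays.

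Fbp1 read 1337, 1812 and 2338 on the mutant arrays, against 574, 570.2 and 637 on the Canton S arrays, a log2 difference of 1.56 (SE 0.174). Lsp1gamma read 1300.1, 1573 and 2438 on the mutant arrays, against 817, 844 and 762 on the Canton S arrays, a log2 difference of 1.07 (SE 0.198). Lsp1beta read 1552, 1774 and 2465 on the mutant arrays, against 1194, 1322 and 1169.95 on the Canton S arrays, a log2 difference of 0.62 (SE 0.151). In these 3 genes the mutant arrays stood in the same order, replicate 1 lowest and replicate 3 highest, with CVs of 24.7% to 33.5%, against 5.17% to 6.64% in Canton S. That order was not particular to them, and Mal-B1, CG13796 and Atet were among other members that had it. With DHR96 mutant replicate 1 alone, Lsp1gamma differed by 0.68 and Lsp1beta by 0.34.

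Of 8 genes in a list of fat body markers, the table names 5, all of them higher: Lsp2, Fbp1, Lsp1gamma and Lsp1beta, and Fbp2, which is not a member. Their summed level was 9847, 12088 and 14623 on the mutant arrays, against 4565 to 5505 on the Canton S arrays. Every marker that the table names passed the authors' limits on these same arrays. Sums over such markers therefore repeat that choice and are no separate reading of a tissue. Fbp2 read 1123, 1580.04 and 2357 on the mutant arrays, against 671, 657 and 583 on the Canton S arrays. The other genes of that list, the yolk proteins, are not identified by name here. In whole animals, a change in the number of cells of a type and a change in RNA per cell cannot be told apart. Of 11 midgut markers the table names 4, of which 3 were lower and 1 higher. Their summed level was 11305 to 12749 on the mutant arrays, against 21755 to 23142 on the Canton S arrays. Brighter probe sets weigh more in that sum, and the other midgut markers are not identified by name here. Of 4 accessory gland markers, genes of a male tissue, the table names 1, Acp76A. Acp76A read 11614 to 12601 on the mutant arrays, against 8829 to 9778 on the Canton S arrays. Of 11 Malpighian tubule markers it names 0, and it also names 0 from lists for testis, ovary, eye, neuron and muscle. The probe sets of these lists either missed the authors' limits or carry no name here. The part of these tissues in the differences of the transporter genes was not tested.

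PPO1 (listed as Bc), a prophenoloxidase of the melanization response made in crystal cells of the blood, was the 1 gene of the superfamily that read lower. It read 386, 392 and 392 on the mutant arrays, against 562, 560.2 and 535 on the Canton S arrays. The mutant arrays agreed within a CV of 0.945%, and the log2 difference was -0.49 (SE 0.0423).

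Of the 3 lipid-handling genes, 2 read lower and 1 higher. CG4830, which the table gives a fatty acid transporter term and a ligase term, read 606, 725 and 567 on the mutant arrays, against 954, 968 and 924 on the Canton S arrays, a log2 difference of -0.58 (SE 0.0835). CG10300, with a vitamin E binding term, read 301, 308 and 308 on the mutant arrays, against 424, 446 and 518 on the Canton S arrays, a log2 difference of -0.57 (SE 0.0731). The mean signal of CG10300, at the 41.6 percentile, was the lowest percentile among the members. Acbp3 (CG8628), an acyl-CoA-binding protein, averaged 4074 ± 141 on the mutant arrays and 2784 ± 211 on the Canton S arrays (SD, n = 3 each), a log2 difference of 0.55.

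Mal-B2 and Mal-B1 encode alpha-glucosidases and lie next to each other in gene order, and they differed in opposite directions. Mal-B2 read 2438, 1922 and 2121 on the mutant arrays, against 3231, 3622 and 3246 on the Canton S arrays, a log2 difference of -0.64 (SE 0.0858). That was the most negative value of any member. Mal-B1 averaged 900.3 ± 123 on the mutant arrays and 604 ± 61.2 on the Canton S arrays (SD, n = 3 each), a log2 difference of 0.56.

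CG17754, which the table describes only by protein binding and by a part in the engulfment step of phagocytosis, had a pair of probe sets. The brighter read 2843, 3432 and 3478 on the mutant arrays, against 2118, 1837 and 1788 on the Canton S arrays. The dimmer, with the suffix _a_at, read 1078, 1263 and 1255 on the mutant arrays, against 871, 756 and 722 on the Canton S arrays. Both were higher in all 3 mutant arrays, by 0.76 (SE 0.0912) and 0.61 (SE 0.0853) on the log2 scale. In both, DHR96 mutant replicate 1 was the lowest mutant array and Canton S replicate 1 the highest Canton S array, so the nearest arrays of the groups were the same for each probe set.

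**Figure D3:**
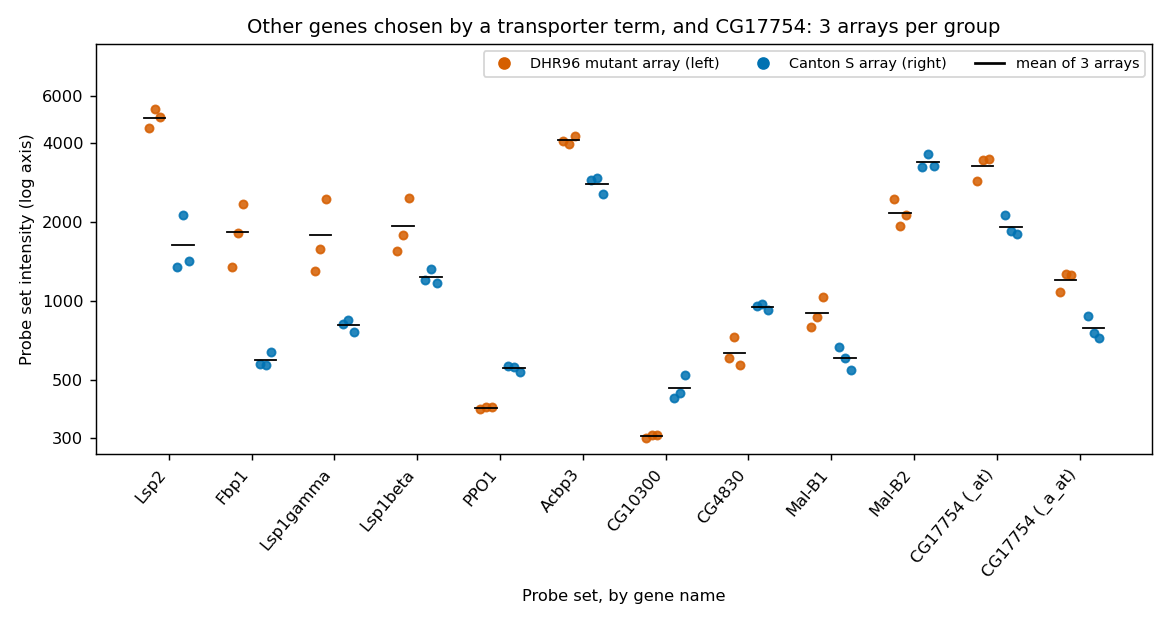
Intensity on each array (log axis) for the 12 probe sets of the 11 members that are not membrane transporters, with DHR96 mutant arrays in orange at the left of each pair, Canton S arrays in blue at the right and a line at the mean of 3 arrays. Fbp1, Lsp1gamma and Lsp1beta show the widest mutant groups, with CVs of 24.7% to 33.5%, and PPO1 the tightest, at 0.945%.

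Terms that did not choose the members linked some of them. Lipid transport was given to 5 members, of which Acbp3, Atet and Trpml read higher and CG4822 and Tspo lower, and to 6 genes of the table in all. A cation transport term was given to CNT2 and MFS12, both higher, and to CngB, which was lower, and to no other gene of the table. Neither term went with 1 direction.

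Differences in DHR96 mutant replicate 1 alone had the same direction as those over 3 arrays for all 27 probe sets, which the lack of overlap between groups fixes in advance. Their size was a median 0.90 of that over 3 arrays for the membrane genes and 0.76 for the other genes. It moved by over 1.5 times for 3 probe sets, those of Lsp1beta, Lsp1gamma and CG13796. Trpml, Mdr50, slo and CG33173 differed by 0.71, -0.64, 0.53 and -0.49 in DHR96 mutant replicate 1 alone. They were among several members that lay slightly further from 0 there than over 3 arrays.

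**Figure D4:**
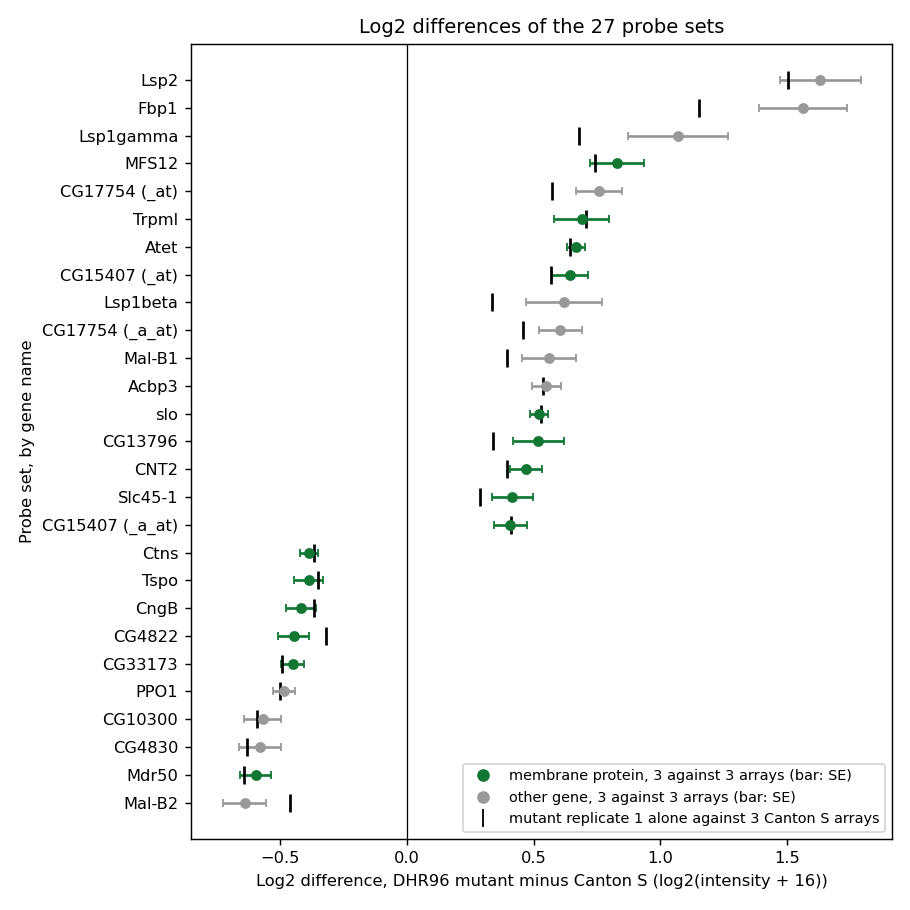
Log2 difference (DHR96 mutant minus Canton S, log2(intensity + 16)) of the 27 probe sets over 3 against 3 arrays, with its SE as a bar, in green for membrane genes and grey for the other genes; the black tick gives DHR96 mutant replicate 1 alone against the 3 Canton S arrays. The tick lies well to the left of the point for Fbp1, Lsp1gamma and Lsp1beta and on or near it for slo, Atet, Trpml and Ctns.

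The spread between arrays differed among members more than between groups. The median CV of the 27 probe sets was 7.53% in the mutant arrays and 6.57% in the Canton S arrays, and the mutant CV was the larger for 14 of the 27. Over all probe sets the median CV was 3.74% in the mutant arrays and 4.21% in the Canton S arrays. The members were bright, with a median level at the 77.3 percentile, as was the rest of the table at 77.7.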

How the data were processed

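Affymetrix arrays were hybridised with biotin-labelled cRNA from 3 DHR96 mutant and 3 Canton S samples. The authors deposited linear probe set intensity values, which look normalized between arrays. MAS5 appears in the submitters' processing notes without a role, and the background and summary methods are unknown here. The authors' deposited table gives, per the file headers, a SAM score, a log2 difference as its numerator, a fold with its sign and a percent q-value; its numerator equalled the mutant minus Canton S mean log2 value within 5.68e-10. Its 286 rows hold 260 probe sets.

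Of 18952 probe sets, 183 controls were set aside. limma 3.58.1 (R 4.3.3; lmFit, eBayes with an intensity trend, no filter) modelled log2(intensity + 16) by group alone, two-sided, with Benjamini-Hochberg adjustment over 18769 probe sets and a threshold of 0.05. The fit was tested on simulated data. Symbols came from CG numbers through the Release 6 gene table; its coordinates were used for gene order only, since no source used here names the files' build.

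Genes were named by this rule: every array's value for CG33281 and CG17754, the 8 largest differences in each direction by gene and the smallest in each direction, with group means for the others; a gene with several probe sets was ranked by its brightest. Members, lists and classes were chosen with earlier results of these data known. The classes were assigned by hand from the table's function terms and general knowledge of the families. Same-numbered samples were not paired: correlations of their deviations from the group means were 0.19, -0.23 and -0.24. The number of arrays limits the precision.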

Additional observations from a re-analysis of the deposited data

How the results depend on the processing

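All 27 log2 differences kept their direction under the 13 alternatives in which they were recomputed. For most alternatives this was fixed in advance. Because the groups did not overlap, leaving out 1 array, changing the pseudocount or blocking by spike-in level could not reverse a direction. The replicate block and leaving out dim probe sets cannot change a difference at all. Only quantile normalization and centring arrays on their medians could have reversed a direction. Of the 351 recomputed values, 341 stayed within 1 SD of the spread between replicates and 10 moved beyond it. The 341 include the values that could not change. Of the 10, 8 moved with a block for the split of arrays by spike-in level, which no label names and which the data alone define. That block sets DHR96 mutant replicate 1 alone against the 3 Canton S arrays, and its calls assume that this array varies like the others. The median size of 0.57 ranged from 0.50 with that block to 0.59 with a pseudocount of 1. By limma, 26 members had an adjusted p under 0.05; the replicate block left 17 and the spike-in block 2, slo and Atet, while leaving out 1 array left 20 to 25. Over all probe sets, 1306 passed (617 higher, 689 lower, and 630 and 463 after quantile normalization). That count was 813 with no intensity trend, 240 with the replicate block, 31 with the spike-in block and 287 to 803 with 1 array left out, lowest without Canton S replicate 1. Without Canton S replicates 2 and 3 it was 803 and 494, and without DHR96 mutant replicates 1, 2 and 3 it was 450, 587 and 426. The cause of these losses was not tested. The fold of CG10300, the member of lowest signal, may be understated.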
